A study of Mus musculus with 8 samples.

Results

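The secreted Wnt antagonists examined here were the 4 Dickkopf genes Dkk1, Dkk2, Dkk3 and Dkk4, the 5 secreted frizzled-related genes Sfrp1, Sfrp2, Frzb (also called Sfrp3), Sfrp4 and Sfrp5, and Wif1. They were chosen by gene name, as the members of these 3 families, with earlier results of these data known. They make up 10 of the 43346 gene identifiers in the count tables. Their mRNA abundance was described in notochord-derived cells (NDCs) of Shh-cre;ROSA:YFP mice, in which Cre made from the Shh gene switches on a yellow fluorescent protein (YFP) in Shh-expressing cells and their descendants. Both stages carried the same alleles. The earlier stage was E12.5, which is day 12.5 of gestation, the later was P0, the day of birth, and each of the 4 samples per stage pooled the animals of 1 litter. Whole notochords were dissected at E12.5 and lysed without a sort, whereas nucleus pulposus (NP) cells of P0 lumbar and thoracic discs were released mechanically and sorted for YFP. Stage and isolation method therefore cannot be told apart in any of the comparisons given here. The E12.5 litters were NDP10.2, NPD3, NPD4 and NPD9.2, and the P0 litters were NPD26, NPD27, NPD28 and NPD30.

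Canonical Wnt signaling begins when a secreted Wnt protein bridges a Frizzled receptor and the co-receptor Lrp5 or Lrp6, which spares β-catenin from destruction and lets it act with TCF/LEF factors on target genes. Sfrp proteins and Wif1 bind Wnt ligands outside the cell, and Sfrp proteins share with Frizzled receptors the cysteine-rich domain that does so. Dkk1, Dkk2 and Dkk4 instead bind Lrp5 and Lrp6, with the Kremen proteins as partners, while Dkk3 is a divergent member that is not established as an Lrp ligand. In the embryonic trunk Wnt antagonists are known for limiting how far Wnt signals from the neural tube and ectoderm reach, and later for shaping cartilage and bone.

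Reference promoter windows, which cover 250 bases before and 50 bases after a transcription start, were found in RefSeq (GRCm38.p6) for 6 of the 10 genes: Dkk1, Dkk2, Sfrp2, Frzb, Sfrp5 and Wif1. The 7-letter TCF/LEF motifs, CTTTG followed by AA, AT, TA or TT, were searched on both strands, and none of them can overlap another on the same strand. Of 32851 windows of 300 bases, 16.9% held at least 1 of them, and among the 6 windows of the antagonists only that of Dkk1 did. The stretch of the Dkk1 window from its first match to its last is shown with the motifs in capitals. It lies at chr19:30549588-30549613 on the minus strand, from 117 to 92 bases before the RefSeq start and inside the Dkk1 gene as Gencode annotates it. The 250 bases before the start are also shown for Dkk2 and Sfrp2, both of which had lower abundance at P0 and neither of which held a match. These lie on the plus strand at chr3:132085042-132085291 and chr3:83766071-83766320.
Dkk1: CTTTGAAatcccatcccggCTTTGTT
Dkk2: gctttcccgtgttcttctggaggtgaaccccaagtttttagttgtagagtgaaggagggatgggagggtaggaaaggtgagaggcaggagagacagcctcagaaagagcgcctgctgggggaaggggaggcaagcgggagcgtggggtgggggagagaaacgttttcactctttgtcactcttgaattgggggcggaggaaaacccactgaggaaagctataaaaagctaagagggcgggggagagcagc
Sfrp2: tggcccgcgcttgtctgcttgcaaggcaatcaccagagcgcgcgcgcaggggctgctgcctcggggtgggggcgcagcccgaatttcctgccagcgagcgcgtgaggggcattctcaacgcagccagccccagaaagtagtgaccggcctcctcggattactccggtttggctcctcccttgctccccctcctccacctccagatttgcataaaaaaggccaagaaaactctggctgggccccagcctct
The whole 300-base windows of Sfrp2, Frzb and Wif1 were rich in CpG, with 22, 20 and 25 of these dinucleotides against a median of 7 over all windows. Such numbers are common, since 23.1%, 26.5% and 18.4% of all windows held at least as many. Sfrp5 had 15, Dkk2 11 and Dkk1 9. Frzb and Sfrp2, which fell, and Wif1, which did not pass the test, thus shared a CpG-rich window. Of the 250 bases before the RefSeq start, 229 of Frzb and 44 of Wif1 lie inside the gene as Gencode annotates it. For Sfrp2 the number is 0. A match describes letters in a window and nothing more.

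The E12.5 litters had 4442775 to 7180221 reads assigned to genes, and the P0 litters 6371842 to 8904050. At these depths 3 counts equal 0.353 to 0.738 CPM, the read count relative to the TMM-normalized library size that is used throughout, and this floor covers counting error only. The notochord gene T (brachyury) was present in every litter, at 242 to 942 CPM at E12.5 and 574 to 2323 CPM at P0. Noto, a marker of the early notochord, was under the filter on low counts. Of the 7 notochord markers tested as described below, 2 fell, 1 rose (Krt19) and 4 did not pass. The stages overlapped for Krt19, and its rise passed with 4 of the 8 litters left out in turn. The 2 that fell were Shh, at 420 to 1348 CPM at E12.5 and 0.157 to 11.8 CPM at P0, and Foxa1, at 70.0 to 239 and 18.6 to 52.3 CPM. The litter NPD4 had the lowest summed level of 8 notochord markers at E12.5, 985 CPM against 1410 to 3326. It also had the highest sum of 8 neural tube markers at E12.5, 897 CPM against 55.2 to 106. Most of that sum came from Tubb3 (576 CPM) and Elavl3 (289 CPM). Among the E12.5 litters Sox2 was also highest in NPD4, at 27.0 CPM, whereas Pax6 was lowest there, at 1.57 CPM. Summed over 8 leukocyte markers, all of which rose, the level was 45.1 to 145 CPM at E12.5 and 642 to 5747 CPM at P0, with the lowest P0 value in NPD30. Reads that htseq-count tallied as ambiguous between genes made up 16.3% and 17.5% of the tally in NDP10.2 and NPD9.2 and at most 11.6% elsewhere. Over the 8 litters a further 26.3% to 33.7% did not align uniquely and 22.7% to 29.5% lay on no annotated feature. The share on genes was 22.6% to 34.8%, and it was lowest in NDP10.2 (22.6%) and NPD9.2 (24.6%).

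Abundance was compared between stages with edgeR's quasi-likelihood test and Benjamini-Hochberg adjustment over all 15467 genes that passed the filter, and calls were made at an adjusted p under 0.05. Of the 10 antagonists 9 passed the filter, and Dkk4 did not. Of these 9, Sfrp1, Sfrp2, Dkk2 and Frzb fell and none rose, whereas 27.9% of all genes tested were called, 12.0% as lower and 16.0% as higher. Without adjustment 6 of the 9 were under 0.05, 1 of them with higher abundance at P0, against 39.7% of all genes tested. DESeq2, which called 33.1% of all genes, also called Sfrp4 as higher. The paper, whose test was DESeq2, likewise lists Sfrp1, Sfrp2, Dkk2 and Frzb as lower at P0 and Sfrp4 as higher. By limma-voom, which called 25.7%, none of the 9 was called as higher. Each of the 4 calls held with any litter left out, and with NDP10.2 and NPD9.2 left out together, where adjusted p ran from 0.0032 for Sfrp2 to 0.041 for Frzb. The stages did not overlap in CPM for the same 4 genes, against 29.9% of all genes tested. The median log2 fold change, P0 over E12.5, was -1.31 over the 9 antagonists and 0.04 over all genes tested. In bulk RNA, fewer cells of a type and less RNA per cell cannot be told apart.

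**Figure D1:**
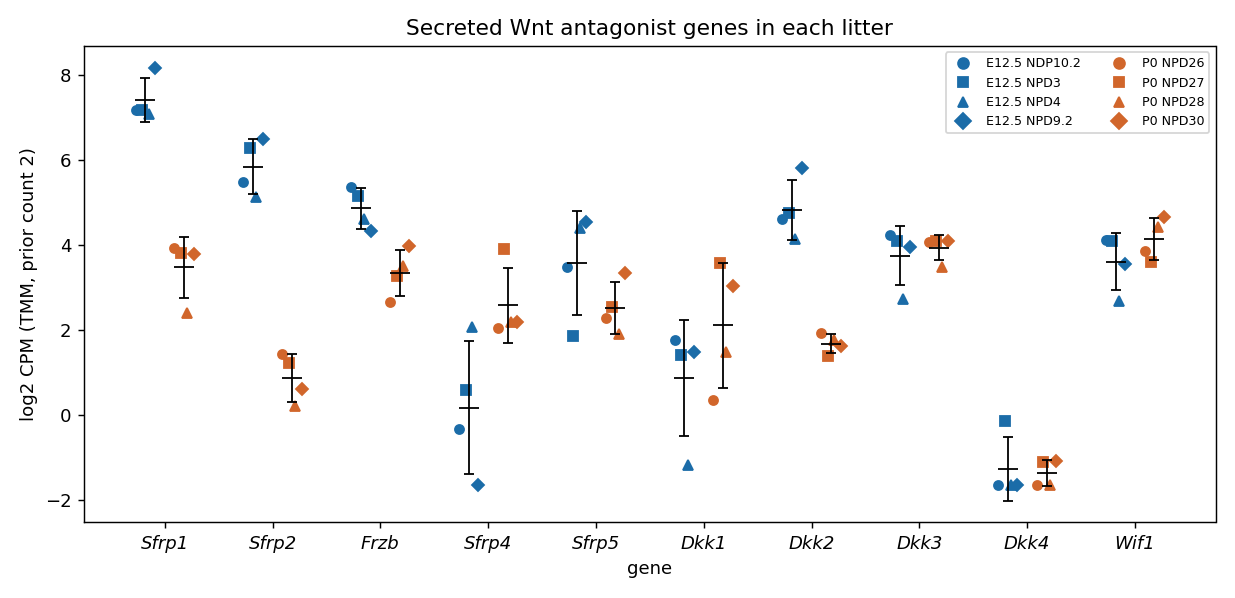
Level of each antagonist in each litter, as log2 CPM with a prior count of 2 (vertical axis), by gene (horizontal axis). Blue symbols are the 4 E12.5 litters and orange symbols the 4 P0 litters, with the mean and SD in black; for Sfrp1, Sfrp2, Frzb and Dkk2 every blue symbol lies above every orange one, while the other genes overlap.

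Sfrp1 encodes a Wnt-binding secreted frizzled-related protein and lies on chromosome 8 (GRCm38, 23411502 to 23449632, plus strand, 3 exons merged over its transcripts; ENSMUSG00000031548.7). Its E12.5 levels were 144 CPM in NDP10.2, 145 in NPD3, 135 in NPD4 and 288 in NPD9.2. At P0 it stood at 14.8 CPM in NPD26, 13.7 in NPD27, 4.94 in NPD28 and 13.3 in NPD30. The highest P0 litter was thus far under the lowest E12.5 litter, and 1 litter in each stage stood away from the rest, NPD9.2 above and NPD28 below. Mean abundance was 178 ± 73.5 CPM across the E12.5 litters and 11.7 ± 4.54 CPM across the P0 litters (SD, n = 4 each). Sfrp1 fell by 3.93 on the log2 scale (SE 0.41, adjusted p = 0.00018), which is 15.2-fold. With each litter left out in turn the log2 fold change ran from -4.06 to -3.63 and passed the test each time.

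Sfrp2, a close relative of Sfrp1 known from the sclerotome of the somites, lies on chromosome 3 (83766321 to 83774316, plus strand, 5 exons; ENSMUSG00000027996.9). Its level at E12.5 was 44.1 CPM in NDP10.2, 76.7 in NPD3, 34.7 in NPD4 and 89.5 in NPD9.2. At P0 it was 2.36 CPM in NPD26, 2.02 in NPD27, 0.824 in NPD28 and 1.21 in NPD30, which are 7 to 15 counts per litter. All P0 litters were thus near the floor of the assay while all E12.5 litters held 187 counts or more. The means were 61.3 ± 26.0 and 1.60 ± 0.708 CPM (SD, n = 4 each). Sfrp2 fell by 5.25 on the log2 scale (SE 0.45, adjusted p = 7.2e-05), a 38.2-fold difference and the largest among the antagonists. It ranked at 55 of the 15467 genes when these were ordered by the size of their fall, and Sfrp1 at 154. An annotated gene on the other strand, Gm26771, overlaps exons of Sfrp2 and held 18 counts over all 8 litters. Whether the counting used strand is not given in the sources used here.

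Sfrp1 and Sfrp2 were both highest in NPD9.2 and lowest in NPD28, and so was the sum of 8 sclerotome markers (Pax1, Pax9, Nkx3-2, Foxc2, Meox1, Meox2, Tbx18 and Uncx), the cells that surround the notochord at E12.5. All 8 of these markers fell, and their sum was 141 to 219 CPM at E12.5 and 8.0 to 24.5 CPM at P0. None of the 8 was at 0 throughout a stage. This match is not particular to sclerotome markers. Axin2, a Wnt feedback gene, was also highest in NPD9.2, at 47.5 CPM, and lowest in NPD28, at 2.83 CPM. Of 7 tested fibroblast and perivascular markers 4 fell. The sum of all 8 was highest in NPD9.2 as well, at 1426 CPM, but lowest in NPD26, at 324 CPM. The part of sclerotome or fibroblast cells in the lower abundance of Sfrp1 and Sfrp2 was not tested. The leukocyte sum was highest in NPD28 too, at 5747 CPM against 3834 in NPD26 and 4359 in NPD27. It was lowest in NPD30, at 642 CPM, where Sfrp1 and Sfrp2 were at 13.3 and 1.21 CPM, inside the range of the other P0 litters. The part of leukocytes in these levels was not tested.

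**Figure D2:**
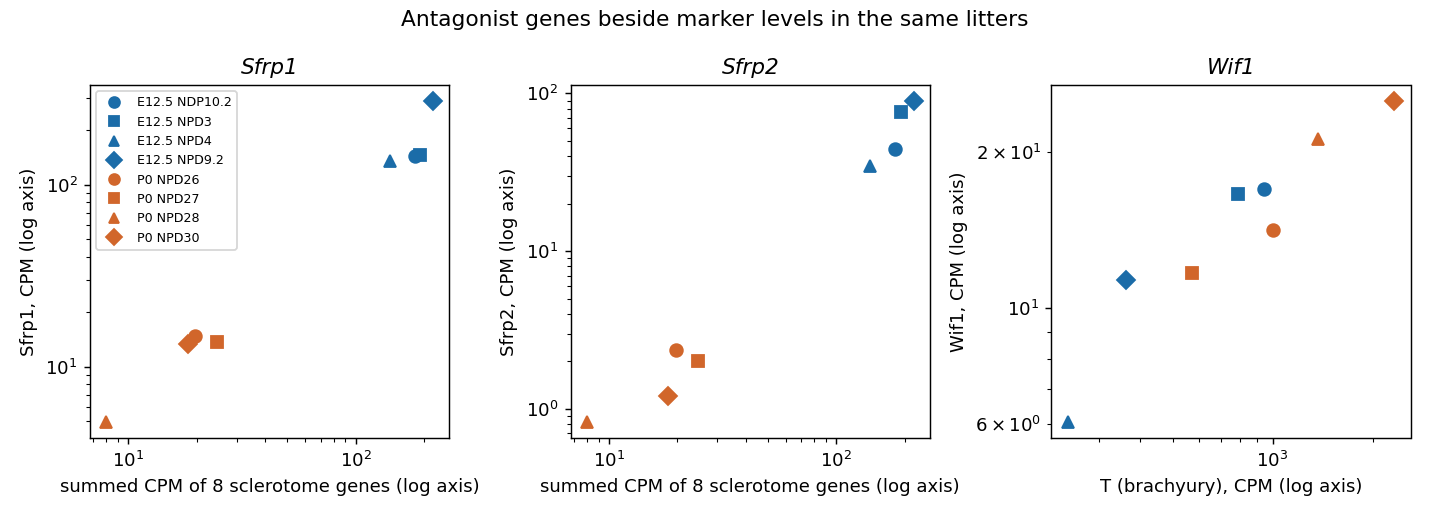
CPM of Sfrp1 and Sfrp2 against the summed CPM of 8 sclerotome genes, and of Wif1 against T, for each litter, all on log axes. Blue symbols are E12.5 and orange symbols P0; Sfrp1 and Sfrp2 were lowest in NPD28, whose sclerotome sum of 8.0 CPM was the lowest, and Wif1 was highest in NPD30, where T was highest, at 2323 CPM.

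Frzb, the secreted frizzled-related gene first known from cartilage, lies on chromosome 2 (80411970 to 80447625, minus strand, 6 exons; ENSMUSG00000027004.3). Its E12.5 levels were 40.8 CPM in NDP10.2, 35.1 in NPD3, 24.1 in NPD4 and 19.7 in NPD9.2. At P0 they were 5.98 CPM in NPD26, 9.23 in NPD27, 10.9 in NPD28 and 15.3 in NPD30. The stages did not overlap, but the gap between the lowest E12.5 litter and the highest P0 litter was much narrower than for Sfrp1 or Sfrp2. The litter NPD9.2, in which Sfrp1 and Sfrp2 peaked, had the lowest Frzb level of its stage. Mean abundance went from 29.9 ± 9.75 to 10.4 ± 3.89 CPM (SD, n = 4 each). Frzb fell by 1.53 on the log2 scale (SE 0.35, adjusted p = 0.0081), or 2.88-fold.

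Sfrp5 lies on chromosome 19 (42197971 to 42202252, minus strand, 3 exons; ENSMUSG00000018822.7) and encodes a protein of the same subgroup as Sfrp1 and Sfrp2. It was measured at 10.9 CPM in NDP10.2, 3.32 in NPD3, 20.6 in NPD4 and 22.9 in NPD9.2. The P0 litters held 4.56 CPM in NPD26, 5.48 in NPD27, 3.41 in NPD28 and 9.85 in NPD30. The E12.5 litters spread widely, and NPD3 lay under all P0 litters. The means were 14.4 ± 9.04 and 5.83 ± 2.81 CPM (SD, n = 4 each), with a log2 fold change of -1.31 (SE 0.56, adjusted p = 0.11). The call depended on the litters: adjusted p was 0.026 without NPD3 and 0.049 without NPD30.

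Sfrp4, known from bone, where its loss in people thins the cortex, lies on chromosome 13 (19623104 to 19632994, plus strand, 6 exons; ENSMUSG00000021319.6). At E12.5 it had 2 counts in NDP10.2 (0.472 CPM), 6 in NPD3 (1.17 CPM), 32 in NPD4 (3.87 CPM) and none in NPD9.2. At P0 it reached 3.77 CPM in NPD26, 14.6 in NPD27, 4.24 in NPD28 and 4.24 in NPD30. A single litter in each stage held most of the reads, NPD4 at E12.5 and NPD27 at P0, and NPD4 alone overlapped the P0 range. Mean abundance went from 1.38 ± 1.73 to 6.71 ± 5.24 CPM (SD, n = 4 each), with a log2 fold change of 2.15 (SE 0.87, adjusted p = 0.090). Without NPD4 it was 3.49 (adjusted p = 0.017). Of 7 tested osteoblast markers 6 rose (Ibsp, Sp7, Dmp1, Phex, Alpl and Spp1), the list of 8 summed to 56.3 to 333 CPM at E12.5 and 1105 to 1921 CPM at P0, and Dmp1 was at 0 in every E12.5 litter. NPD27, with the highest Sfrp4 level, had an osteoblast sum of 1239 CPM, within the range of the other P0 litters, and the part of such cells in the Sfrp4 values was not tested.

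Among the Dickkopf genes only Dkk2 was called. Dkk2, which binds Lrp5 and Lrp6, lies on chromosome 3 (132085292 to 132180304, plus strand, 4 exons; ENSMUSG00000028031.5). Its E12.5 levels were 24.1 CPM in NDP10.2, 26.5 in NPD3, 17.2 in NPD4 and 55.6 in NPD9.2. At P0 the 4 litters lay close together, at 3.46 CPM in NPD26, 2.31 in NPD27, 3.06 in NPD28 and 2.73 in NPD30. As for Sfrp1 and Sfrp2, the highest level was in NPD9.2 and no litter of one stage reached the other. Abundance averaged 30.8 ± 17.0 CPM in the E12.5 group and 2.89 ± 0.490 CPM in the P0 group (SD, n = 4 each). Dkk2 fell by 3.40 on the log2 scale (SE 0.41, adjusted p = 0.00035), 10.6-fold, and ranked at 269 by the size of its fall.

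Dkk1, the classical Lrp5 and Lrp6 antagonist and the gene whose window held both TCF/LEF motifs, lies on chromosome 19 (30545863 to 30549665, minus strand, 4 exons; ENSMUSG00000024868.8). It was scarce at E12.5, with 3.07 CPM in NDP10.2, 2.34 in NPD3, 0.121 in NPD4, where it rested on 1 count, and 2.46 in NPD9.2. At P0 it ranged from 0.944 CPM in NPD26 and 2.47 in NPD28 to 7.88 in NPD30 and 11.5 in NPD27. The P0 litters thus fell on both sides of the E12.5 litters, with NPD27 and NPD30 above all of them and NPD26 under 3 of them. The means were 2.00 ± 1.29 and 5.71 ± 4.89 CPM (SD, n = 4 each). The log2 fold change of 1.56 (SE 0.89, adjusted p = 0.22) did not pass, nor did it with any litter left out.

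Dkk3, the divergent Dickkopf gene, lies on chromosome 7 (112116017 to 112159057, minus strand, 8 exons; ENSMUSG00000030772.5). It was at 18.4 CPM in NDP10.2, 16.8 in NPD3, 6.29 in NPD4 and 15.0 in NPD9.2, and at 16.5 in NPD26, 16.7 in NPD27, 10.8 in NPD28 and 16.7 in NPD30. The P0 range lay inside the wider E12.5 range, and each stage had a single low litter. The means were 14.1 ± 5.40 and 15.2 ± 2.91 CPM (SD, n = 4 each). The log2 fold change was 0.11 (SE 0.36, adjusted p = 0.85), and its sign turned under upper quartile scaling (-0.023) and without NPD4 (-0.15), so no direction is given.

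Dkk4, known from skin appendages, lies on chromosome 8 (22624043 to 22627547, plus strand, 4 exons; ENSMUSG00000031535.6), 0.784 Mb from Sfrp1. It had 3 counts in NPD3, 1 in NPD27, 1 in NPD30 and none in the other 5 litters, at or under the floor in all 8. Expression of Dkk4 was therefore not detectable above the floor at this depth, and no fold is given.

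Wif1, which binds Wnt ligands through a domain of its own and is known from cartilage, lies on chromosome 10 (121033960 to 121100650, plus strand, 10 exons; ENSMUSG00000020218.7). Its E12.5 levels were 17.0 CPM in NDP10.2, 16.6 in NPD3, 6.04 in NPD4 and 11.3 in NPD9.2. At P0 they were 14.2 CPM in NPD26, 11.7 in NPD27, 21.2 in NPD28 and 25.0 in NPD30. NPD28 and NPD30 were above all E12.5 litters, and the other P0 litters were among them. Its means were 12.7 ± 5.15 and 18.0 ± 6.17 CPM (SD, n = 4 each). The log2 fold change of 0.51 (SE 0.38, adjusted p = 0.36) did not pass, nor did it with any litter left out. Within each stage the litters ranked in Wif1 as they ranked in T, which was at 942, 790, 242 and 362 CPM in the E12.5 litters and at 1007, 574, 1372 and 2323 CPM in the P0 litters, in the order given above. T was set beside Wif1 after the values were seen, and its log2 fold change of 1.18 (adjusted p = 0.12) did not pass either. The sums of 8 notochord, 8 chondrocyte, and 8 tendon and annulus markers ranked the litters in the same order within each stage. In the order of litters above, the chondrocyte sum was 7524, 5132, 1909 and 3676 CPM at E12.5. At P0 it was 1543, 1347, 4334 and 4879 CPM. These sums were also set beside Wif1 after the values were seen. The part of any of these cells in the Wif1 values was not tested.

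**Figure D3:**
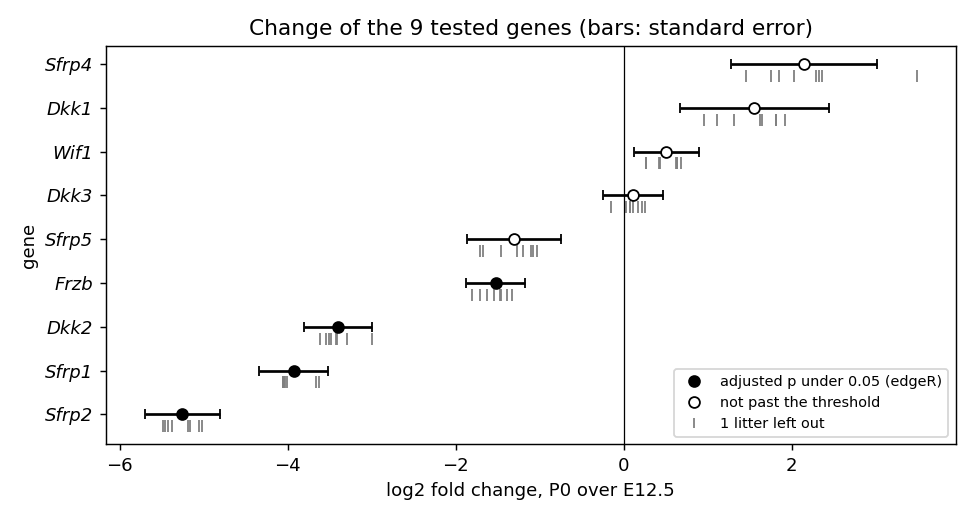
Log2 fold change, P0 over E12.5 (horizontal axis), of the 9 antagonists that passed the filter (vertical axis), with bars of 1 standard error; filled circles had an adjusted p under 0.05 in edgeR and grey ticks are the values with 1 litter left out. Sfrp2, Sfrp1, Dkk2 and Frzb lie left of 0 with all of their ticks, whereas the ticks of Dkk3 fall on both sides of 0 and those of Sfrp4 run from 1.46 to 3.49.

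To compare levels between genes, CPM was divided by the length of each gene's merged exons in kilobases. On this per-length scale the order at E12.5 was Sfrp1 (40.7 ± 16.8 CPM per kb, SD, n = 4), Sfrp2 (28.4 ± 12.1), Frzb (9.24 ± 3.01), Dkk2 (8.32 ± 4.58), Sfrp5 (7.58 ± 4.76), Wif1 (5.25 ± 2.12), Dkk3 (4.20 ± 1.61), Dkk1 (0.823 ± 0.532), Sfrp4 (0.330 ± 0.414) and Dkk4 (0.111 ± 0.223). Neighbours in this order overlapped between litters, except that every Sfrp2 value was above every Frzb value and every Dkk3 value above every Dkk1 value. At P0 the order was Wif1 (7.42 ± 2.54 CPM per kb), Dkk3 (4.52 ± 0.865), Frzb (3.20 ± 1.20), Sfrp5 (3.07 ± 1.48), Sfrp1 (2.67 ± 1.04), Dkk1 (2.35 ± 2.02), Sfrp4 (1.60 ± 1.25), Dkk2 (0.780 ± 0.132), Sfrp2 (0.745 ± 0.329) and Dkk4 (0.0562 ± 0.0650). All neighbours overlapped at P0 apart from Sfrp2 and Dkk4.

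Summed over the 10 genes, the per-length level was 75.1 to 151 CPM per kb in the E12.5 litters and 21.5 to 33.9 CPM per kb in the P0 litters. The makeup of this sum differed as well as its size. Sfrp1 and Sfrp2 together made up 58.0% to 71.3% of it at E12.5 (median 64.9%) and 7.04% to 20.6% at P0 (median 12.5%). Wif1 and Dkk3 made up 5.81% to 13.6% at E12.5 (median 8.82%) and 34.3% to 55.6% at P0 (median 47.3%), although the abundance of neither passed the test. These shares are tied to each other, since each rises when another falls.

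**Figure D4:**
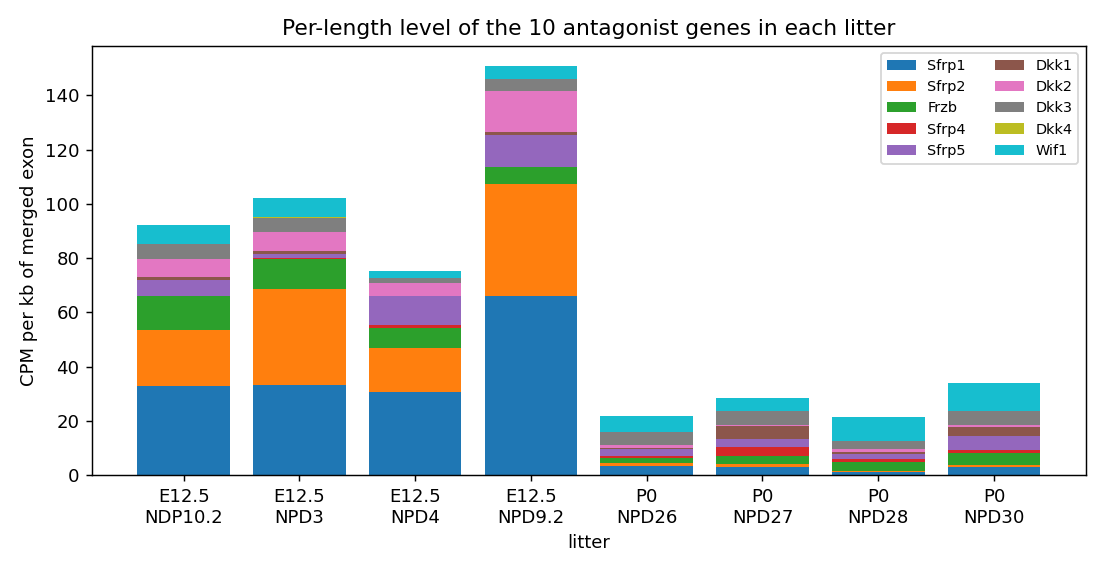
Per-length level of the 10 antagonists stacked in each litter, in CPM per kb of merged exon (vertical axis, starting at 0), for the 4 E12.5 and 4 P0 litters (horizontal axis). Sfrp1 and Sfrp2 fill most of each E12.5 bar, the highest of which is NPD9.2 at 151 CPM per kb, and Wif1 and Dkk3 fill 34.3% to 55.6% of each P0 bar.

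The receptors that the Dickkopf proteins use were measured in the same libraries. Kremen1 went from 42.3 ± 18.1 to 12.2 ± 4.84 CPM (SD, n = 4 each) and fell by 1.78 on the log2 scale (SE 0.40, adjusted p = 0.0068). Kremen2 fell by 5.22 on the log2 scale (SE 0.60, adjusted p = 0.00029), from 16.8 ± 9.74 to 0.443 ± 0.224 CPM (SD, n = 4 each), with its P0 values around the floor. The co-receptors did not pass: the log2 difference of Lrp5 was 1.02 (adjusted p = 0.083, and 0.039 without NPD26) and that of Lrp6 -0.10 (adjusted p = 0.80). Thus 2 of these 4 genes fell and none rose, against 12.0% and 16.0% of all genes tested. Their median log2 fold change was -0.94. With NDP10.2 and NPD9.2 left out together, 1 of the 4 was still called.

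Of 9 other inhibitors of the pathway, 7 passed the filter, with a median log2 fold change of -0.66. Among these 7, 3 fell and 1 rose, against 12.0% and 16.0% of all genes tested. The gene that rose was Sostdc1, which encodes an antagonist of Lrp5, Lrp6 and BMP ligands. Its levels were 86.8, 64.4, 30.0 and 40.1 CPM in the E12.5 litters and 419, 232, 486 and 977 CPM in the P0 litters, in the order of litters given above. No P0 litter came near the E12.5 range, and the log2 fold change was 3.26 (SE 0.49, adjusted p = 0.0011), which passed with each litter left out. The genes that fell were Apcdd1, a membrane inhibitor (log2 fold change -2.80, adjusted p = 0.0018), Tpbg, a membrane glycoprotein that inhibits Wnt signaling (-2.0, adjusted p = 0.0067) and Trabd2b, a protease that inactivates Wnts (-1.90, adjusted p = 0.0048). Notum (0.62), Dkkl1 (0.44) and Igfbp4 (-0.66) did not pass, and Sost and Cer1 were under the filter. With NDP10.2 and NPD9.2 left out together, 1 of the 7 was called as lower and 1 as higher.

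Among the ligands and receptors that the antagonists act on, more genes fell than rose, whereas 12.0% of all genes tested fell and 16.0% rose. Of 10 Frizzled receptor genes, all tested, 8 fell and none rose (median log2 fold change -2.32), and the largest falls were those of Fzd10 (-4.27, adjusted p = 0.0042) and Fzd2 (-3.06, adjusted p = 0.00026). Fzd2 had means of 163 ± 56.4 and 19.5 ± 6.98 CPM (SD, n = 4 each). Fzd4, also among the 8 that fell, did not pass without NDP10.2, NPD3, NPD26, NPD27 or NPD28 (adjusted p from 0.059 to 0.080). Of 19 Wnt ligand genes 13 passed the filter, 7 of which fell and 1 rose (median -1.72). The largest fall was that of Wnt7b (-5.36, adjusted p = 0.00087), followed by Wnt9b (-2.92, adjusted p = 0.025), which did not pass without NDP10.2 or NPD30 (adjusted p = 0.072 and 0.057). The gene that rose was Wnt16 (3.23, adjusted p = 0.0040), at 0.585 to 1.89 CPM in the E12.5 litters and 3.03 to 18.3 CPM in the P0 litters. The count of lower ligands was 4 without NDP10.2. Wnt3, counted as lower, did not pass without NDP10.2, NPD9.2, NPD27 or NPD28. Nor did Wnt7a, also counted as lower, without NDP10.2, NPD3, NPD9.2, NPD26 or NPD28. Porcn and Wls, which serve the secretion of Wnts, did not pass (-0.49 and 0.22).

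Of 8 targets and feedback genes, 6 fell and none rose, against 12.0% and 16.0% of all genes tested. The median log2 fold change of the 8 was -2.48. Sp5 had the largest fall (-5.19, adjusted p = 0.0027), with 3 counts or fewer in each P0 litter, followed by Dact1 (-3.09, adjusted p = 0.00093). Nkd2, a feedback inhibitor (-1.75, adjusted p = 0.020), did not pass without NPD9.2, NPD26 or NPD28 (adjusted p = 0.062, 0.058 and 0.051). Lef1, named after its values were seen, was at -0.22 with all litters and at -2.71 without NPD28 (adjusted p = 0.89 and 0.00087). Axin2, the feedback inhibitor most used as a readout of the pathway, was at 39.6, 32.6, 24.7 and 47.5 CPM in the E12.5 litters and at 8.02, 3.75, 2.83 and 5.61 CPM in the P0 litters. These ranges did not overlap, and Axin2 fell by 2.84 on the log2 scale (SE 0.37, adjusted p = 0.00052).

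The R-spondin, Lgr, Rnf43 and Znrf3 genes, which set how much Frizzled stays on the cell surface, gave less stable calls. Of 8 tested genes 3 fell (Rspo1, -2.15, Rspo3, -1.66, and Lgr4, -1.06) and Lgr6 rose (2.97, adjusted p = 0.022), with a median of -1.0. None of the 3 was called as lower without NDP10.2, NPD3 or NPD9.2, and 1 was without NPD27, NPD28 or NPD30. Lgr6 did not pass without NPD3 or NPD9.2 (adjusted p = 0.063 and 0.064). Of 12 genes for intracellular parts of the pathway, Bcl9 (-1.50, adjusted p = 0.0019) and Tcf7l1 (-1.45, adjusted p = 0.037) fell and none rose, with a median of -0.28. Over all genes tested 12.0% fell and 16.0% rose. The 2 falls among 12 genes here and the 1 rise among the 8 genes above are near these shares. Tcf7l1 passed with 2 of the 8 litters left out in turn, NPD4 and NPD30. All of these gene lists were assembled with earlier results of these data known, so their counts are descriptions.

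**Figure D5:**
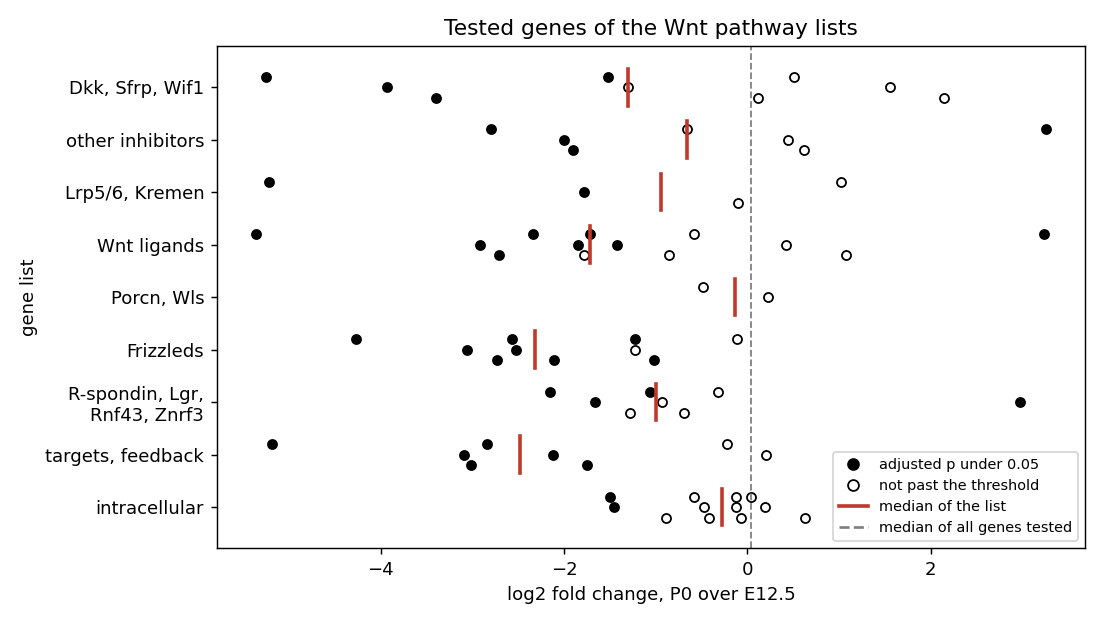
Log2 fold change, P0 over E12.5 (horizontal axis), of each tested gene in the antagonist family and 8 other Wnt pathway lists (vertical axis). Filled circles had an adjusted p under 0.05, red bars are list medians and the dashed line is the median of all genes tested, 0.04; the lowest medians are those of the targets and feedback genes (-2.48) and the Frizzleds (-2.32), and each list has genes on the right of the line or close to it.

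For each antagonist the tested genes with the most similar log2 CPM over the 8 litters were found by Pearson's r, among genes with a mean log2 CPM of at least 2. These values rest on 4 litters of each stage and so largely on the difference between stages and isolation methods. For Sfrp1 they were Kank4 (r = 0.996), Fbln1 (0.993) and Sema3a (0.992), for Sfrp2 Ednra (0.994), Neb (0.993) and Cdh3 (0.991), and for Dkk2 Pdzrn3 (0.995), Rbm24 (0.988) and Amot (0.987). Many genes had r over 0.9 with each, 613 for Sfrp1, 587 for Sfrp2 and 566 for Dkk2. For Frzb the genes were Lpcat1 (0.993), Slit2 (0.979) and Slc35d1 (0.978), with 283 genes over 0.9. The antagonists whose stages overlapped had fewer such genes: 69 for Sfrp4, led by Gm9392 (0.971), 56 for Wif1, led by Susd5 (0.988) and Tshr (0.980), 10 for Sfrp5, led by Dclk2 (0.981), 4 for Dkk3, led by Yju2 (0.930), and 2 for Dkk1, led by Slc38a5 (0.936).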

How the data were processed

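The authors made TotalScript libraries, aligned single-end reads with STAR 2.4.0j to GRCm38 and ran htseq-count against Gencode M4. The values they deposited are raw counts, 1 per gene and litter, with no normalization. The submitters' processing notes also name mm9, CASAVA 1.8.2, bcl2fastq and edgeR without saying what for. Symbols, positions and merged exon lengths came from Gencode M21 on GRCm38, which matched 42462 of 43346 identifiers. No 2 libraries held identical counts.

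In R 4.3.3, edgeR 4.0.16 (TMM, filterByExpr with minimum count 10 and minimum total 15, robust quasi-likelihood F-test) compared 4 P0 with 4 E12.5 litters, with the Benjamini-Hochberg method over 15467 genes. The authors used DESeq2. The standard error is the log2 fold change divided by the square root of F. DESeq2 1.42.0 and limma 3.58.1 (voom) gave alternatives, beside other scalings, filters and each litter left out. The procedure was tested on simulated data. The p-values set the difference between stages against the spread between litters, as moderated across genes. They do not separate stage from isolation method.

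All 10 antagonists are named, with up to 3 genes most like each (1 is not reported here) and, from each pathway list, genes past the threshold, the 2 largest falls and rises in lists of over 5 genes, and all Lrp, Kremen and other inhibitor genes. Members and lists were chosen with earlier results of these data known. Protein sequences were not used here.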

Additional observations from a re-analysis of the deposited data

Results flagged for a closer look

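In each stage, the highest or lowest of the 4 litters was compared with the spread of the others by Dixon's test at its 95% critical value, for 10 genes in 2 stages, so 20 groups. Chance flags about 1 in 20 such groups. Of the 18 groups of genes that passed the filter on low counts, 4 stood out. Sfrp1 was far above the other E12.5 litters in NPD9.2, at 288 CPM against 135 to 145. At P0 it was far below the others in NPD28, at 4.94 CPM against 13.3 to 14.8. Dkk3 was also lowest in NPD28 at P0, at 10.8 CPM against 16.5 to 16.7. Sfrp4 was highest at P0 in NPD27, at 14.6 CPM against 3.77 to 4.24. Dkk4 was at 0.585 CPM in the E12.5 litter NPD3, which is 3 counts and the floor of the assay, and at 0 in the other E12.5 litters. A group with counts in a single litter always stands out, so Dkk4 is left out of the 4.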

How the results depend on the processing

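Sfrp1, Sfrp2, Dkk2 and Frzb kept their direction and stayed past the threshold in all 71 alternatives in which they were tested, and over the 9 tested antagonists 151 of 159 alternatives left direction and call as they were. At least 10 counts in every sample left Sfrp2, Dkk1 and Sfrp4 untested. The count of antagonists called as higher was 1 (Sfrp4) in place of 0 under DESeq2 (adjusted p = 0.036) and with no filter (adjusted p = 0.029, where 15.2% of all genes were called), and 0 to 1 with 1 litter left out. Sfrp5 was also called with no filter (adjusted p = 0.042), and antagonists called as lower numbered 4 to 5 with 1 litter left out. Dkk3 changed sign under upper quartile scaling (a log2 fold change of -0.023), and with 1 litter left out it ran from -0.15 (without NPD4) to 0.25, with adjusted p over 0.05 in every setting. Upper quartile scaling moved the median log2 fold change of all genes by -0.15. Over all genes, 4321 were called, 2581 with NDP10.2 and NPD9.2 left out together, and 3612 to 4529 with 1 litter left out. With that pair left out the lower calls numbered 3 Wnt ligands, 5 Frizzleds and 1 intracellular gene, and the R-spondin list had 0 in either direction. At least 10 counts in every sample left 3 lower and 0 higher ligands, 0 higher R-spondin list genes and 1 lower Dickkopf receptor gene. Upper quartile scaling gave 4 lower intracellular genes, and no filter 1 higher Dickkopf receptor gene. The cause was not tested. No paired analysis was possible because the labels give each litter its own code and no number shared between stages. Depth limits Dkk4, Sfrp4 and Dkk1, which had 3 counts or fewer in 8, 2 and 1 of the 8 litters.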
